A study of Drosophila melanogaster with 12 samples.

Results

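The genes described here encode structural proteins of the insect cuticle, and they were followed in nuclear RNA from optic lobe glia of *nonstop*, *sgf11* and wild-type *Drosophila melanogaster* larvae. A gene was taken when its FlyBase symbol began with *Cpr* and a digit, *Lcp*, *Edg*, *Ccp84* or *Twdl*. This rule gave 123 of the 15682 genes counted, of which 70 were *Cpr*, 17 *Lcp*, 3 *Edg*, 7 *Ccp84* and 26 *Twdl* genes. No count in any of the 12 libraries was found for 28 of them, 46 had between 1 and 19 counts over all libraries, and the 49 with at least 20 counts are reported below. The filter for testing (over 1 CPM, the count of a gene scaled to a common library size, in at least 4 libraries) was passed by 17 genes, of which 11 were *Cpr* and 6 were *Twdl* genes.

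The study asked which genes depend on the deubiquitinase module of the SAGA coactivator in glia, the module in which Nonstop is the ubiquitin protease and Sgf11 a subunit it needs. The *nonstop* larvae were homozygous for the *not02069* allele and the *sgf11* larvae for the *CG13379e01308* allele, while wild-type larvae carried the chromosome 3 balancer *TM3*, *Sb1*. All 3 genotypes carried the pan-glial driver *repo-Gal4* and the *UAS-KASH-GFP* transgene at *attP2*, which puts GFP on the nuclear envelope of glia so that the nuclei could be affinity-purified from pooled brain and eye-antennal disc complexes of wandering larvae of the last instar. Each genotype had 4 libraries that the study calls biological replicates, and homozygotes of either mutation die as late larvae or early pupae. *repo*, the transcription factor that defines most *Drosophila* glia, was present in every library, at 104 to 141 CPM in *nonstop*, 106 to 155 CPM in *sgf11* and 133 to 159 CPM in wild type.

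The insect cuticle is a layered matrix of chitin fibers and proteins that is secreted by epidermal, tracheal and other ectodermal cells and is rebuilt at every molt. Most proteins encoded by *Cpr*, *Lcp*, *Edg* and *Ccp84* genes share the Rebers-Riddiford domain, which binds chitin, while the Tweedle proteins encoded by the *Twdl* genes form a separate family that shapes the larval body. The genes lie in tandem clusters, and pulses of the steroid hormone ecdysone and the nuclear receptors it induces time when each one is switched on. Glia and neurons make no cuticle.

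Library depth ranged from 6913032 to 11459317 counts assigned to genes, so that 1 count was worth 0.0850 to 0.152 CPM. All cuticle protein genes together took 0.00474 to 0.0106% of the gene counts of a library. The transcript of the mutated gene separated the genotypes as labelled. *Sgf11* stood at 0 to 0.147 CPM in *sgf11* libraries, against 3.09 to 6.21 CPM in wild type, and *not* stood at 9.09 to 11.1 CPM in *nonstop* libraries, against 24 to 29.4 CPM in wild type. CPM values are scaled by TMM factors throughout, and false discovery rates (FDR) are those of edgeR over all 9966 genes tested.

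Most cuticle protein genes were close to silent in these nuclei, and of the 17 that could be tested 7 changed in *nonstop* and 3 in *sgf11*. In *nonstop*, 1 of the 17 tested genes was downregulated and 6 were upregulated at FDR under 0.01, where the same call was made for 17.0% of all genes tested in the downward and 18.7% in the upward direction. Among the 6, *Cpr78Ca*, *Cpr78Cb* and *Cpr78Cc* passed the filter only with their *nonstop* libraries, where they were high. The upward count is therefore not independent of the filter. In *sgf11*, 1 gene was downregulated and 2 were upregulated, against 14.1% and 16.4% of all genes. The single downregulated gene was *Cpr49Ac* in both mutants, while *Cpr64Aa* and *Cpr67Fb* were upregulated in both, against 11.8% of all genes called down and 13.1% called up in both. The wild-type libraries are shared by these comparisons. The median log2 fold change of the 17 genes was 0.31 in *nonstop* and −0.17 in *sgf11*, beside 0.01 and 0.02 over all genes tested. All calls fell on *Cpr* genes, and none of the 6 *Twdl* genes tested was called in either mutant, where the lowest FDR of any was 0.021. By DESeq2 likewise 0 *Twdl* genes were called, and at an unadjusted p under 0.05 in edgeR 1 of the 6 passed in *nonstop* and 3 in *sgf11*. At an unadjusted p under 0.05, 8 of the 17 genes passed in each mutant. The share of all genes that pass at this p was not determined, so the counts at an unadjusted p cannot be read as a trait of the cuticle protein genes.

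**Figure D1:**
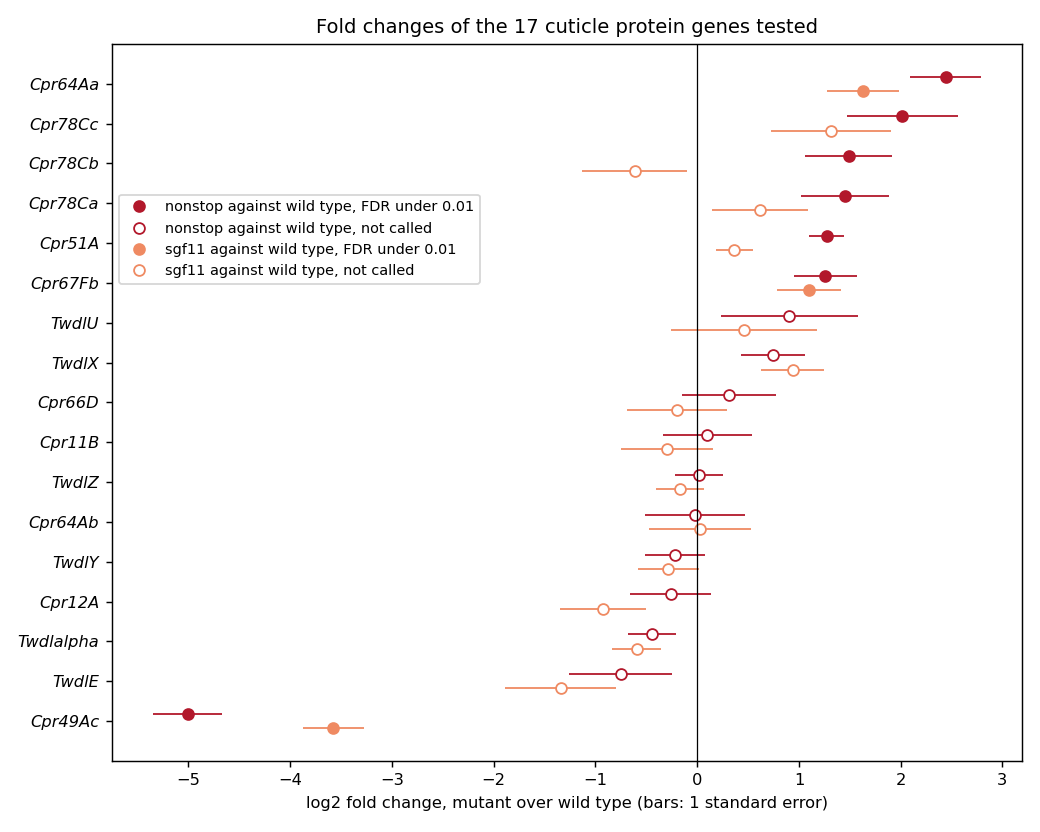
Log2 fold change of each of the 17 cuticle protein genes tested, for *nonstop* (dark red) and *sgf11* (orange) against wild type, with bars of 1 standard error and filled points for FDR under 0.01. *Cpr49Ac* lies far to the left at −5.01 in *nonstop* and −3.57 in *sgf11*, and the 6 genes called upward in *nonstop* lie between 1.26 and 2.44.

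*Cpr49Ac*, a Rebers-Riddiford gene on chromosome arm 2R, was the most abundant cuticle protein transcript of wild-type glial nuclei and was far lower in both mutants. It had 5, 7, 7 and 16 counts in the *nonstop* libraries, 51, 9, 16 and 15 counts in the *sgf11* libraries and 230, 406, 386 and 273 counts in the wild-type libraries. Scaled, this was 0.977 ± 0.306 CPM in *nonstop* and 2.59 ± 1.47 CPM in *sgf11*, against 32.9 ± 10.3 CPM in wild type (SD, n = 4 each). Every mutant library lay below every wild-type library, and the wild-type libraries themselves spread between 20.9 and 44.6 CPM. The log2 fold change in *nonstop* was −5.01 (SE 0.34, FDR = 5.8e-09) and that in *sgf11* was −3.57 (SE 0.30, FDR = 6.0e-08). The *sgf11* level rested in part on replicate 1, which had 4.71 CPM beside 1.37 to 2.35 CPM in the other 3 libraries. The mutants did not differ from each other at the threshold, with a log2 difference of −1.43 for *nonstop* minus *sgf11* (SE 0.43, FDR = 0.074). As these are bulk samples, fewer nuclei that transcribe the gene and less RNA per nucleus cannot be told apart, here or in the results that follow.

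*Cpr49Ac* accounted for a large share of all cuticle protein counts in wild type and for little in the mutants. It made up 0.781 to 1.42% of them in *nonstop*, 2.54 to 6.56% in *sgf11* and 30.1 to 48.0% in wild type. The 123 genes summed to 69.5 to 111 CPM in *nonstop*, 53.7 to 71.8 CPM in *sgf11* and 69.7 to 93.7 CPM in wild type, and these ranges overlapped between all 3 genotypes. Without *Cpr49Ac* the sum was 68.5 to 110 CPM in *nonstop* and 52.3 to 68.1 CPM in *sgf11*, against 48.3 to 56.4 CPM in wild type, so that the *nonstop* libraries then lay above all wild-type libraries. Leaving out *Cpr64Aa* and *Cpr51A* as well gave 44.1 to 60.1 CPM in *nonstop*, 38.2 to 48.7 CPM in *sgf11* and 39.2 to 45.2 CPM in wild type. These sums were not tested.

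**Figure D2:**
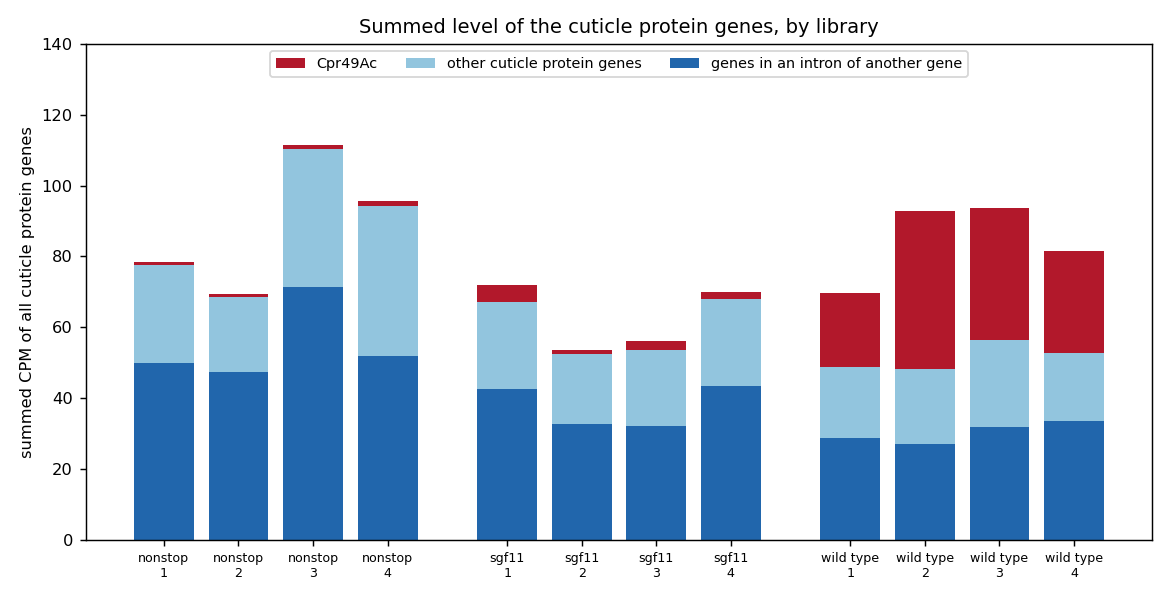
Summed CPM of the 123 cuticle protein genes in each library, 4 libraries per genotype, split into *Cpr49Ac* (red), genes taken to lie in an intron of another gene (dark blue) and all others (light blue). *Cpr49Ac* fills 30.1 to 48.0% of the wild-type bars and at most 6.56% of the mutant bars, whereas the dark blue part reaches 47.2 to 71.5 CPM in *nonstop* and 27.1 to 33.5 CPM in wild type.

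*Cpr64Aa*, a Rebers-Riddiford gene on arm 3L, showed the largest upward change among the 17 genes tested. It was measured at 14.3, 11.7, 36.6 and 20.9 CPM in the *nonstop* libraries and at 16.5, 7.89, 8.65 and 13.7 CPM in the *sgf11* libraries, against 4.19, 3.07, 5.61 and 2.32 CPM in wild type. Wild type was exceeded by each library of both mutants, and *nonstop* replicate 3 stood apart from the other *nonstop* libraries. The log2 fold change in *nonstop* was 2.44 (SE 0.35, FDR = 2.1e-05) and that in *sgf11* was 1.63 (SE 0.36, FDR = 0.0014). The difference between the mutants was 0.81 (SE 0.32, FDR = 0.19).

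*Cpr51A*, a Rebers-Riddiford gene on arm 2R, was the only cuticle protein gene that differed between the mutants at FDR under 0.01, where the same call was made for 2.11% of all genes tested. It stood at 12.6, 12.8, 13.8 and 13.2 CPM in the *nonstop* libraries, at 9.41, 6.22, 6.16 and 5.69 CPM in the *sgf11* libraries and at 4.37, 6.04, 5.61 and 5.68 CPM in the wild-type libraries. The *nonstop* libraries agreed closely with each other and lay above all others, whereas *sgf11* and wild type overlapped. *nonstop* exceeded wild type by 1.27 on the log2 scale (SE 0.17, FDR = 1.4e-05) and *sgf11* by 0.91 (SE 0.17, FDR = 0.0040), while *sgf11* against wild type gave 0.36 (SE 0.18, FDR = 0.11). The call between the mutants was lost when any one of *nonstop* replicates 1, 3 or 4 or *sgf11* replicates 2, 3 or 4 was left out, with FDR up to 0.018.

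*Cpr67Fb*, on arm 3L, was measured at 3.92, 2.36, 5.51 and 4.93 CPM in *nonstop* and at 3.23, 3.64, 4.40 and 3.88 CPM in *sgf11*, against 2.28, 1.21, 1.06 and 2.42 CPM in wild type. The *sgf11* libraries lay above all wild-type libraries, and *nonstop* replicate 2 lay within the wild-type range. The log2 fold change in *nonstop* was 1.26 (SE 0.31, FDR = 0.0029) and that in *sgf11* was 1.10 (SE 0.32, FDR = 0.0092). Without wild-type replicate 2 or 3 or *nonstop* replicate 3 or 4 the first call was lost, with FDR up to 0.013. The second call was close to the threshold, and it was lost in 9 of 12 fits that each left out 1 library, with FDR up to 0.030 and a log2 fold change of 0.94 to 1.30. These fits left out each *sgf11* replicate, wild-type replicate 2 or 3, or *nonstop* replicate 1, 3 or 4.

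The neighbours *Cpr78Ca*, *Cpr78Cb* and *Cpr78Cc* on arm 3L were upregulated in *nonstop* and were not called in *sgf11*. *Cpr78Ca* had 1.10, 1.11, 1.38 and 1.19 CPM in *nonstop*, 0.554, 0.910, 0.293 and 0.906 CPM in *sgf11* and 0.273, 0.329, 0.580 and 0.526 CPM in wild type. *Cpr78Cb* had 3.06, 2.36, 1.38 and 3.40 CPM in *nonstop*, 0.554, 0.303, 0.440 and 1.04 CPM in *sgf11* and 0.546, 1.76, 0.773 and 0.632 CPM in wild type. *Cpr78Cc* had 1.10, 1.53, 0.413 and 2.21 CPM in *nonstop*, 1.11, 1.21, 0.440 and 0.518 CPM in *sgf11* and 0.364, 0.220, 0.193 and 0.526 CPM in wild type. For *Cpr78Ca* and *Cpr78Cb* every *nonstop* library lay above every *sgf11* library, and only for *Cpr78Ca* did it also lie above every wild-type library. *Cpr78Ca* was over 1 CPM in *nonstop* libraries alone and *Cpr78Cc* in mutant libraries alone. Without the *nonstop* libraries none of the 3 genes had enough libraries over 1 CPM to pass the filter. Their calls are therefore not independent of the filter.

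The log2 fold change in *nonstop* was 1.46 for *Cpr78Ca* (SE 0.43, FDR = 0.010), 1.49 for *Cpr78Cb* (SE 0.43, FDR = 0.0080) and 2.02 for *Cpr78Cc* (SE 0.55, FDR = 0.0056). In *sgf11* it was 0.62 (FDR = 0.31), −0.61 (FDR = 0.35) and 1.32 (FDR = 0.079) for the same 3 genes in that order. *nonstop* minus *sgf11* gave 0.84 (FDR = 0.32), 2.10 (FDR = 0.013) and 0.70 (FDR = 0.51), so none of the 3 was shown to differ between the mutants at FDR under 0.01. These genes have 79 to 147 counts over all libraries, and the call of *Cpr78Ca* was the least stable of all calls made. Among 12 fits that each left out 1 library, *Cpr78Ca* kept its call in 1 (without *sgf11* replicate 3), *Cpr78Cb* in 6 (lost without wild-type replicates 1, 3 or 4 or *nonstop* replicates 1, 2 or 4) and *Cpr78Cc* in 7 (lost without wild-type replicates 1, 2 or 3 or *nonstop* replicates 2 or 4). The highest FDR in these fits was 0.030 for *Cpr78Ca*, 0.032 for *Cpr78Cb* and 0.037 for *Cpr78Cc*.

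The remaining tested *Cpr* genes were not called in any comparison. *Cpr11B*, on the X chromosome, had 4.04, 2.22, 2.2 and 2.47 CPM in *nonstop*, 1.94, 2.12, 2.79 and 1.55 CPM in *sgf11* and 1.64, 0.549, 3.09 and 4.95 CPM in wild type. Its wild-type libraries differed by more than the genotypes did, and the log2 fold change in *nonstop* was 0.10 (SE 0.44) and that in *sgf11* was −0.29 (SE 0.45). *Cpr12A* averaged 2.19 ± 0.41 CPM in *nonstop*, 1.31 ± 0.74 CPM in *sgf11* and 2.61 ± 1.53 CPM in wild type. *Cpr64Ab* averaged 1.21, 1.23 and 1.21 CPM in the same order, and *Cpr66D* 1.03, 0.684 and 0.818 CPM.

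**Figure D3:**
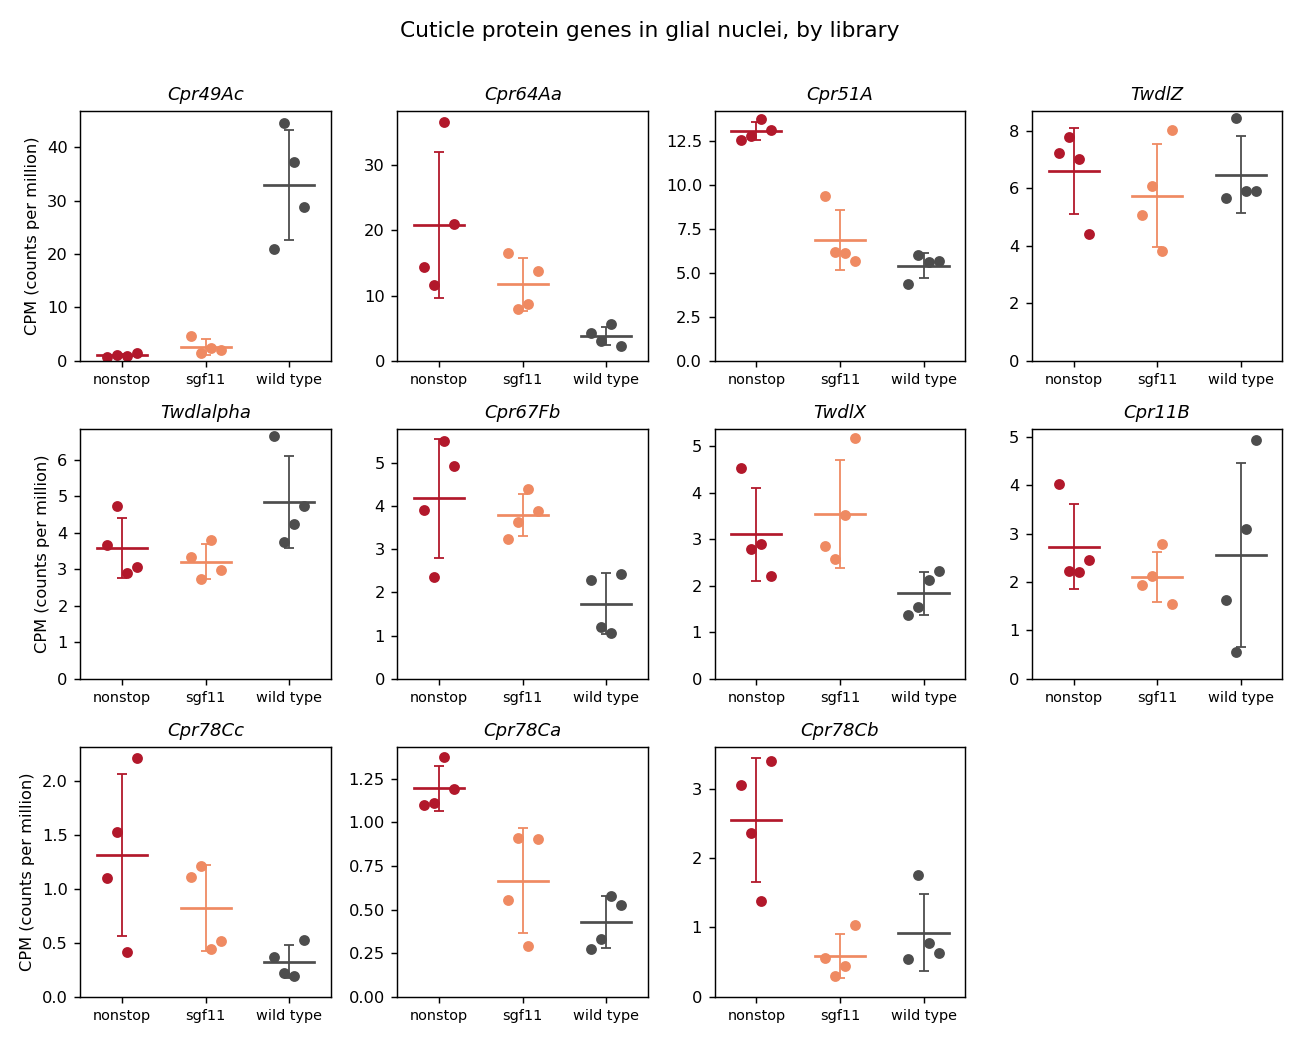
CPM of 11 cuticle protein genes in each library (points), with the mean (line) and SD (bars) of the 4 libraries of *nonstop*, *sgf11* and wild type, on linear axes from 0. The genotypes separate fully for *Cpr49Ac* and *Cpr64Aa* in both mutants, and for *Cpr51A* the *nonstop* libraries lie at 12.6 to 13.8 CPM above all others.

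No Tweedle gene tested was called, although some values leaned one way. *TwdlZ*, the most abundant of them, had 7.22, 7.78, 7.02 and 4.42 CPM in *nonstop*, 5.08, 6.07, 3.81 and 8.02 CPM in *sgf11* and 5.65, 8.46, 5.90 and 5.89 CPM in wild type. The 3 genotypes overlapped, and the log2 fold change in *nonstop* was 0.02 (SE 0.23, FDR = 0.96) and that in *sgf11* was −0.17 (SE 0.24, FDR = 0.60). *Twdlalpha* had 3.67, 4.72, 2.89 and 3.06 CPM in *nonstop*, 3.32, 2.73, 3.81 and 2.98 CPM in *sgf11* and 6.65, 3.73, 4.25 and 4.74 CPM in wild type. Its log2 fold change in *nonstop* was −0.45 (SE 0.24, FDR = 0.13) and that in *sgf11* was −0.59 (SE 0.24, FDR = 0.053), with overlapping libraries.

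*TwdlX* came closest to a call among the Tweedle genes. It had 4.53, 2.78, 2.89 and 2.21 CPM in *nonstop*, 2.86, 2.58, 3.52 and 5.18 CPM in *sgf11* and 1.37, 1.54, 2.13 and 2.32 CPM in wild type. All *sgf11* libraries lay above all wild-type libraries and 1 *nonstop* library did not. The log2 fold change in *nonstop* was 0.74 (SE 0.31, FDR = 0.057) and that in *sgf11* was 0.94 (SE 0.31, FDR = 0.021). *TwdlY*, *TwdlE* and the annotated pseudogene *TwdlU* were not called, with log2 fold changes of −0.22, −0.75 and 0.91 in *nonstop* and −0.28, −1.34 and 0.46 in *sgf11*. *TwdlG*, under the filter and named after its values were seen, had 9, 3, 6 and 32 counts in *nonstop*, 5, 4, 0 and 5 counts in *sgf11* and 2, 2, 2 and 6 counts in wild type, so that most of its *nonstop* counts came from replicate 4. Summed over all 26 Tweedle genes, the level was 18.5 to 21.3 CPM in *nonstop*, 14.9 to 23.6 CPM in *sgf11* and 18.5 to 21.3 CPM in wild type.

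Larval cuticle protein genes were detected at low levels only, and none passed the filter. *Lcp1*, which encodes one of the major cuticle proteins of the last larval instar, had 8, 1, 14 and 6 counts in *nonstop*, 3, 5, 6 and 6 counts in *sgf11* and 10, 3, 10 and 15 counts in wild type, with overlap between all genotypes. All 17 *Lcp* genes together summed to 2.50 to 8.12 CPM in *nonstop*, 2.31 to 4.69 CPM in *sgf11* and 2.42 to 4.19 CPM in wild type. *Lcp65Ac* had no count in wild type, but 1, 1, 4 and 2 counts in *nonstop* and 1, 6, 10 and 1 counts in *sgf11*, which was at least 3.10-fold and at least 7.49-fold higher than the floor of 3 counts over the 4 wild-type libraries. Reads that align to more than 1 place were not counted, so genes with near-identical copies, such as *Lcp65Ab1* and *Lcp65Ab2*, the 3 *Lcp65Ag* genes, *Lcp1* with *Lcp2* or *Cpr67Fa1* with *Cpr67Fa2*, are uncertain, and their low counts do not show that they were silent.

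Genes of the *Edg* and *Ccp84* classes were close to absent. *Edg78E*, first described as an ecdysone-dependent gene of the imaginal discs, had 4, 4, 1 and 8 counts in *nonstop*, 0, 0, 0 and 1 counts in *sgf11* and 0, 1, 1 and 0 counts in wild type. Every *nonstop* library lay above every other library, and the ratio of pooled counts over pooled depth to wild type was 9.87 with a 95% counting interval of 2.34 to 88.1, while no ratio is given for *sgf11*, where both groups were at or under the floor. Its 20 counts over all libraries met the minimum only through *nonstop*. *Ccp84Aa*, the highest of the 7 *Ccp84* genes, had 2 counts in *nonstop*, 0 in *sgf11* and 1 in wild type over 4 libraries each.

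Among the 49 genes with at least 20 counts, 3 had all *nonstop* libraries below all wild-type libraries and 11 had them above, which is 6.12% and 22.4% of the genes, beside 18.3% and 20.5% of all genes with at least 20 counts. In *sgf11* the numbers were 2 below and 5 above, or 4.08% and 10.2%, beside 16.9% and 18.7%. The upward share in *nonstop* was thus near that of all genes, and the others were below it. The 49 genes had a median of only 62 counts over all libraries. The shares over all genes were not matched for depth, so the lower shares cannot be read as a trait of these genes. Between the mutants, 1 of the 49 genes had all *nonstop* libraries below all *sgf11* libraries and 5 had them above, beside 5.08% and 4.70% of all genes. *Cpr47Eb* on arm 2R was the clearest of the genes under the filter. It had 3, 4, 17 and 13 counts in *nonstop* and 7, 1, 6 and 2 counts in *sgf11*, against none in the 4 wild-type libraries, and so was at least 14.3-fold and at least 6.66-fold higher than the floor of 3 counts. Several genes, among them *Cpr47Eb*, *Lcp65Ac* and *Edg78E*, reached 20 counts only through mutant libraries, where they were high. Their separation from wild type is thus not independent of how they were chosen.

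When every gene with a count was tested, 2 of the 32 genes under the filter were called upward in *nonstop*, *Cpr47Eb* (FDR = 2.1e-04) and *Cpr11A* (FDR = 0.0068), where 12.7% of all genes were called upward. In *sgf11* these were *Cpr47Eb* (FDR = 0.0035) and *Lcp65Ac* (FDR = 0.0039), where 10.8% of all genes were. *Cpr11A* had 4, 8, 17 and 16 counts in *nonstop*, 3, 2, 3 and 7 counts in *sgf11* and 3, 2, 0 and 4 counts in wild type. None of the genes under the filter was called downward, beside 13.2% of all genes in *nonstop* and 11.5% in *sgf11*. *TwdlT* had 0, 0, 1 and 6 counts in *nonstop* and 1, 0, 1 and 2 counts in *sgf11*, against 10, 4, 6 and 4 counts in wild type, with FDR = 0.14 and 0.074, and its *sgf11* libraries lay below all wild-type libraries. *Cpr62Bc* gave 26 wild-type counts, of which 22 came from replicate 3.

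Compared per length of exon, most of the 49 cuticle protein genes sat below the middle of all genes in wild-type glial nuclei. The median of the 49 genes was 0.492 CPM per kb of exon, which is above 37.2% of the 15002 genes with an exon length. Over all genes tested the median was 6.12 CPM per kb. Those genes passed the filter for testing and 32 of the 49 did not, so part of this gap follows from the filter. The level of *Cpr49Ac* was 15.5 CPM per kb in wild type, above 84.0% of all genes with an exon length. *TwdlZ* with 9.37 and *Cpr51A* with 8.33 CPM per kb followed, and *Cpr67Fb*, *Cpr64Aa* and *Twdlalpha* came next at 3.81, 3.74 and 3.58 CPM per kb. In *nonstop* nuclei the order was changed, with *Cpr64Aa* at 20.6 and *Cpr51A* at 20.1 CPM per kb at the top, *TwdlZ* at 9.57 and *Cpr67Fb* at 9.14 after them, and *Cpr49Ac* at 0.462 CPM per kb. In *sgf11* nuclei *Cpr64Aa* stood at 11.5, *Cpr51A* at 10.6, *TwdlZ* at 8.31, *Cpr67Fb* at 8.29 and *Cpr49Ac* at 1.22 CPM per kb. Neighbours in these orders were not tested against each other, and the leading pair in each mutant lay closer together than the SD of *Cpr64Aa* over libraries.

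Of the 123 genes, 94 lay in 17 groups in which neighbours were at most 20 kb apart (gene order of the BDGP6 annotation), and in several of these groups 1 gene changed beside neighbours with few counts or no call. The *Cpr49Ac* group on 2R holds 8 genes, of which the other 7 had 75 counts together over all libraries, 57 of them from *Cpr49Ah*, and *Cpr49Aa*, *Cpr49Ab* and *Cpr49Af* had none. The *Cpr64Aa* group on 3L holds 4 genes, and only *Cpr64Aa* was called. Its neighbor *Cpr64Ab* had log2 fold changes of −0.02 in *nonstop* and 0.03 in *sgf11*, and *Cpr64Ac* had 19, 22 and 22 counts over the *nonstop*, *sgf11* and wild-type libraries. *Cpr64Ad* had 37 counts in *nonstop*, 6 in *sgf11* and 14 in wild type. The Tweedle group on X and the *Lcp1* group on 2R kept similar sums in the 3 genotypes, at 15.2 ± 2.5, 14.3 ± 2.7 and 15.4 ± 0.5 CPM for the first and 3.44 ± 2.14, 1.98 ± 0.49 and 2.83 ± 0.53 CPM for the second in *nonstop*, *sgf11* and wild type (SD, n = 4 each).

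In some other groups the genes with most of the counts were higher in *nonstop* than in wild type. Groups with fewer counts also leaned the other way. The *Cpr62Ba*, *Cpr65Ea*, *Cpr72Ea*, *Cpr76Ba*, *Cpr97Ea* and *Edg84A* groups, each with 9 to 55 counts over all libraries, had lower means in both mutants. The *Cpr78C* group on 3L holds *Cpr78Ca*, *Cpr78Cb*, *Edg78E* and *Cpr78Cc* in this order, and the means of all 4 were higher in *nonstop* than in wild type. Together they summed to 5.52 ± 1.71 CPM in *nonstop*, 2.10 ± 0.64 CPM in *sgf11* and 1.73 ± 0.51 CPM in wild type (SD, n = 4 each). The *Cpr67Fb* group on 3L, with *Cpr67Fa1* and *Cpr67Fa2*, summed to 4.62 ± 1.49 CPM in *nonstop*, 4.47 ± 0.43 CPM in *sgf11* and 1.91 ± 0.72 CPM in wild type, mostly from *Cpr67Fb*. The *TwdlU* group on 3R, with *TwdlF*, *TwdlG* and *TwdlV*, summed to 2.66 ± 1.69 CPM in *nonstop*, 1.49 ± 0.75 CPM in *sgf11* and 0.900 ± 0.387 CPM in wild type, and all 4 means were lowest in wild type. The *Cpr47Eb* group on 2R summed to 1.42 ± 0.94 CPM in *nonstop*, 0.882 ± 0.418 CPM in *sgf11* and 0.127 ± 0.097 CPM in wild type, mostly from *Cpr47Eb* and *Cpr47Ec*. These sums were not tested.

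The genes next to the *Cpr78C* group that belong to none of the cuticle protein classes differed among themselves. *CG11309*, on one side, was not called, with log2 fold changes of 0.16 (FDR = 0.46) in *nonstop* and 0.36 (FDR = 0.10) in *sgf11*. *pzg*, on the other side, had log2 fold changes of −0.80 (FDR = 8.7e-06) in *nonstop* and −0.68 (FDR = 5.5e-05) in *sgf11*, while *CG43702*, which lies between *Edg78E* and *Cpr78Cc*, had 2.69 (FDR = 4.3e-05) and 2.16 (FDR = 6.4e-04).

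**Figure D4:**
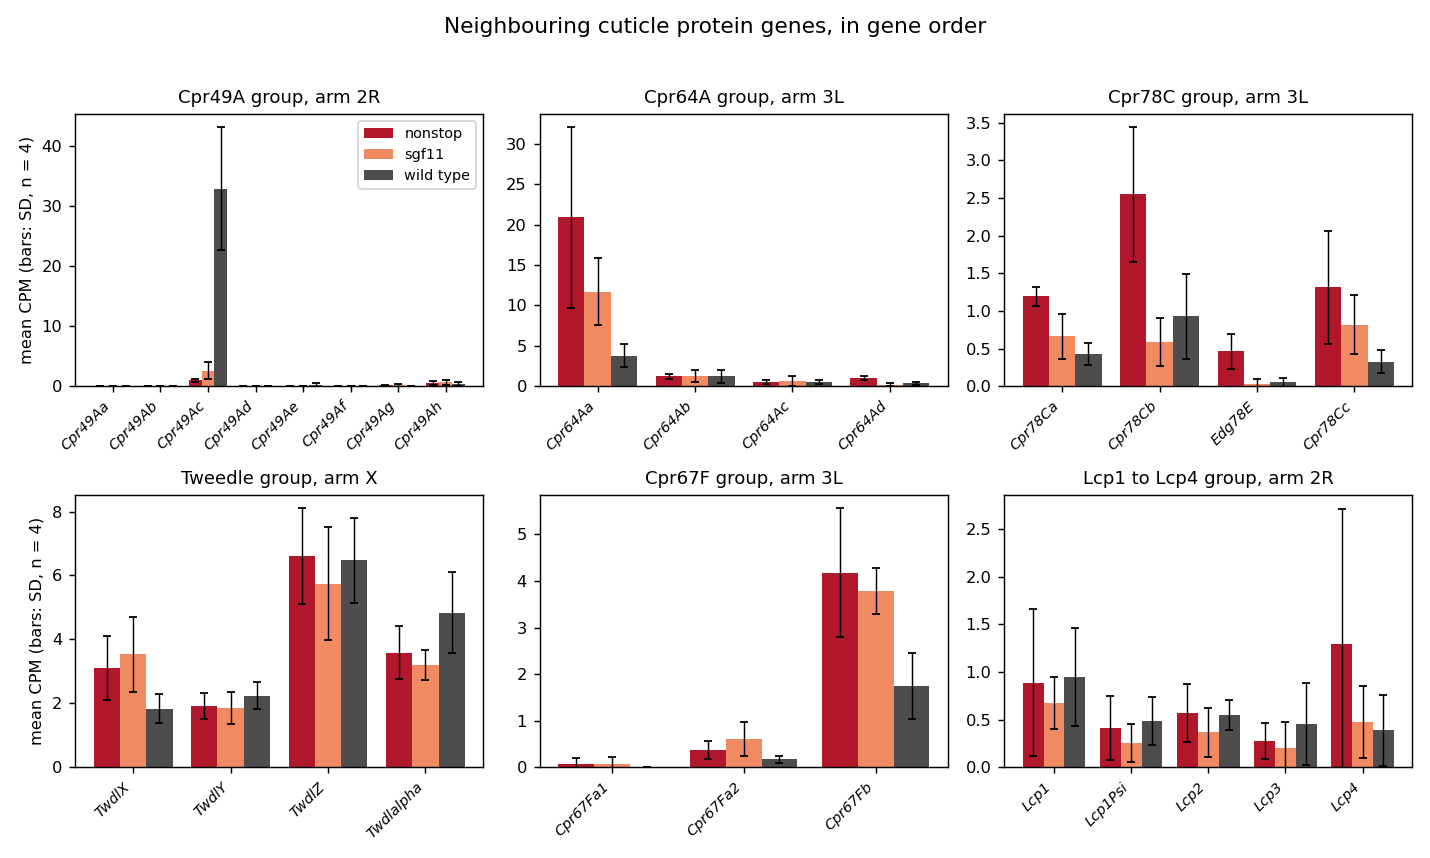
Mean CPM (bars) with SD over 4 libraries of neighbouring cuticle protein genes in *nonstop*, *sgf11* and wild type, in their order along the chromosome arm, for 6 groups of neighbours. *Cpr49Ac* and *Cpr64Aa* change beside neighbours that stay near 0 to 1.23 CPM, and the 4 genes of the *Cpr78C* group are all highest in *nonstop*.

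Chromosome 3 carried the mutation of each mutant genotype and both transgenes, and in wild type also the balancer. It holds 81 of the 123 genes and 8 of the 17 tested. Of the 7 tested on arm 3L, 5 were upregulated in *nonstop* and 2 in *sgf11*. Over all genes tested on arm 3L, 18.6% were called upward in *nonstop* and 17.0% in *sgf11*, close to the shares over the whole genome. For the genes on chromosome 3, the mutation and differences in the chromosome that carries it cannot be told apart. *Cpr49Ac* and *Cpr51A* lie on arm 2R, for which the genotypes name no mutation or transgene, and the 6 genes tested on the X chromosome were not called. Over all genes tested on X, 16.8% were called down and 17.1% up in *nonstop*, and 14.1% and 13.8% in *sgf11*. With only 6 genes, the lack of calls cannot be read as a contrast between chromosomes.

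Reads were counted over exons without regard to strand, in nuclear RNA that holds unspliced transcripts, so a read from the intron of a surrounding gene is counted for a cuticle protein gene that lies within that intron. By the BDGP6 models, 14 of the 123 genes, 11 of the 49 reported and 8 of the 17 tested overlapped the span of another gene without sharing an exon with it. This was taken as lying in an intron of that gene, and which gene lies within the other was not checked. These 14 genes carried 61.1% of all cuticle protein counts in *nonstop*, 59.9% in *sgf11* and 36.0% in wild type, and they summed to 47.2 to 71.5 CPM in *nonstop*, 32.1 to 43.4 CPM in *sgf11* and 27.1 to 33.5 CPM in wild type. *Cpr49Ac*, *Cpr67Fb* and the *Cpr78C* genes are not among them. *Cpr67Fb* shares exon sequence with the antisense gene *asRNA:CR45171*, and the 2 cannot be told apart without strand.

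*Cpr51A* lies in an intron of *CG30197* on the other strand, and *CG30197* was itself upregulated, at 46.0 CPM in *nonstop* and 41.7 CPM in *sgf11*, against 20.2 CPM in wild type. Its log2 fold change was 1.18 (FDR = 9.6e-05) in *nonstop* and 1.04 (FDR = 3.8e-04) in *sgf11*, with 0.13 (FDR = 0.77) between the mutants. *Cpr51A* and this host thus had nearly the same fold change in *nonstop*. In *sgf11* the host was called and *Cpr51A* was not, with 0.36 (FDR = 0.11). The 2 genes were not tested against each other, and the part of host reads in the *Cpr51A* counts was not tested.

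*Cpr64Aa*, *Cpr64Ab*, *Cpr64Ac* and *Cpr64Ad* lie in introns of *CG43367*, which had log2 fold changes of 0.31 (FDR = 0.015) in *nonstop* and 0.26 (FDR = 0.041) in *sgf11*. The change of *Cpr64Aa* was larger than that of its host. In the same host *Cpr64Ab* and *Cpr64Ac* did not show it. *Cpr64Ad*, under the filter, had 37 counts in *nonstop*, 6 in *sgf11* and 14 in wild type, with every *nonstop* library above every wild-type library. The part of host reads in these counts was not tested. The 4 Tweedle genes on X lie in introns of *goe*, which had 98.8 CPM in *nonstop*, 122 CPM in *sgf11* and 113 CPM in wild type and was not called (log2 fold changes of −0.19 and 0.11). *Cpr11B* lies in an intron of *hwt*, which had log2 fold changes of 0.57 (FDR = 0.0018) in *nonstop* and 0.22 (FDR = 0.18) in *sgf11*.

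Other genes of cuticle formation were followed as lists of known genes, whose counts stand beside 13.1% of all genes tested called up and 11.8% called down in both mutants. Of 9 tested genes for other structural cuticle and chitin-binding proteins, 2 were upregulated in *nonstop* and 2 in *sgf11*, and none was downregulated in either. Only 1 was upregulated in both mutants. This was *obst-E*, a chitin-binding protein that shapes the larval cuticle, with log2 fold changes of 1.60 (FDR = 1.5e-04) in *nonstop* and 1.14 (FDR = 0.0040) in *sgf11*. The abundant *obst-A*, *obst-B* and *Gasp*, which encode chitin-binding proteins of the same family, gave −0.34, −0.16 and −0.05 in *nonstop* and −0.65, −0.45 and −0.14 in *sgf11*, without a call. *obst-H*, named for its values, was called in *sgf11* (4.31, FDR = 3.3e-05) and was lower in *nonstop* than in *sgf11* by a log2 difference of −2.73 (FDR = 0.0053). *obst-J*, also named for its values, was called in *nonstop* (2.70, FDR = 0.0061), where its libraries ranged from 0.979 to 16.5 CPM.

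Of 11 tested genes for chitin synthesis and assembly, 3 were upregulated in *nonstop* and 2 in *sgf11*, and only *Cda5*, a member of the chitin deacetylase family, in both. *Cda5* averaged 64.7 ± 3.2 CPM in *nonstop* and 110.0 ± 12.4 CPM in *sgf11*, against 12.8 ± 2.8 CPM in wild type (SD, n = 4 each), with log2 fold changes of 2.34 (FDR = 1.2e-09) and 3.10 (FDR = 4.3e-11), and the mutants differed by −0.77 (FDR = 0.0012). *Cda4* was called in *nonstop* (0.95, FDR = 0.0065) and gave 0.81 (FDR = 0.019) in *sgf11*. *verm*, a chitin deacetylase, and *Gfat2*, which feeds sugar into chitin precursors, gave 0.51 and 0.13 in *nonstop* and 0.14 and −0.20 in *sgf11*, without a call. The other genes called in 1 mutant, named for their values, were *exp* in *nonstop* (1.36, FDR = 0.0023) and *Cda9* in *sgf11* (2.97, FDR = 6.2e-04).

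Of 16 tested genes for chitin turnover, which here include the chitinase-like growth factors of the Idgf family, 6 were upregulated and 3 downregulated in *nonstop*, 4 were upregulated and 2 downregulated in *sgf11*, and 2 were upregulated and 2 downregulated in both mutants, which is near the shares over all genes. *Idgf6* and *Idgf2* gave log2 fold changes of 1.75 and 0.72 in *nonstop* and 1.54 and 0.61 in *sgf11*. *Hexo1*, a hexosaminidase, and *Cht11*, a chitinase, gave −0.87 and −0.78 in *nonstop* and −0.85 and −0.73 in *sgf11*. *Cht5*, a chitinase of the molting fluid that was named for its values, was the only gene of this list that differed between the mutants, at 9.36 ± 2.89 CPM in *nonstop*, 85.0 ± 16.5 CPM in *sgf11* and 28.9 ± 5.4 CPM in wild type. It was thus downregulated in *nonstop* (−1.60, FDR = 6.7e-06) and upregulated in *sgf11* (1.55, FDR = 3.7e-06), with −3.16 (FDR = 1.9e-08) between them.

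Among 14 tested genes for sclerotization and pigmentation, which harden and color the cuticle, 6 were upregulated in both mutants and none was downregulated in either. All 6 belong to the yellow family. *yellow-h* stood at 16.0 ± 1.1 CPM in *nonstop* and 17.4 ± 1.5 CPM in *sgf11*, against 1.51 ± 0.68 CPM in wild type (SD, n = 4 each), with log2 fold changes of 3.40 (FDR = 2.0e-09) and 3.52 (FDR = 1.6e-09). *yellow-f2*, *yellow-b* and *yellow-c* gave 1.89, 1.82 and 1.73 in *nonstop* and 1.95, 1.31 and 1.38 in *sgf11*. *yellow-d* and *yellow-d2* were the other 2. Of 6 tested genes for the apical matrix, 3 that encode zona pellucida domain proteins were downregulated in both mutants and none was upregulated. These were *neo*, *nyo* and *pio*, with −2.11, −1.76 and −0.55 in *nonstop* and −1.54, −1.55 and −0.73 in *sgf11*, while the giant matrix protein gene *dpy* gave 0.80 (FDR = 0.015) and 0.39 (FDR = 0.23).

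Transcription factors of the ecdysone pathway, which time cuticle gene expression, were lower in both mutants for 8 of 13 genes and higher for 2. *Blimp-1*, a repressor that sets the timing of *ftz-f1*, averaged 0.360 ± 0.280 CPM in *nonstop* and 0.769 ± 0.618 CPM in *sgf11*, against 12.3 ± 2.0 CPM in wild type (SD, n = 4 each), with log2 fold changes of −4.90 (FDR = 5.9e-08) and −3.84 (FDR = 3.8e-07). The nuclear receptor genes *Eip78C*, *Hr3* and *Hr4* gave −3.39, −2.75 and −2.11 in *nonstop* and −2.21, −2.74 and −1.96 in *sgf11*. The 2 that were higher, *ftz-f1* and *Hr38*, also encode nuclear receptors, and *ftz-f1* gave 1.32 (FDR = 4.2e-08) in *nonstop* and 0.70 (FDR = 6.2e-05) in *sgf11*. *Eip78C* and *ftz-f1* differed between the mutants, by −1.19 (FDR = 0.0040) and 0.63 (FDR = 0.0016). No link between these genes and the cuticle protein genes was tested.

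**Figure D5:**
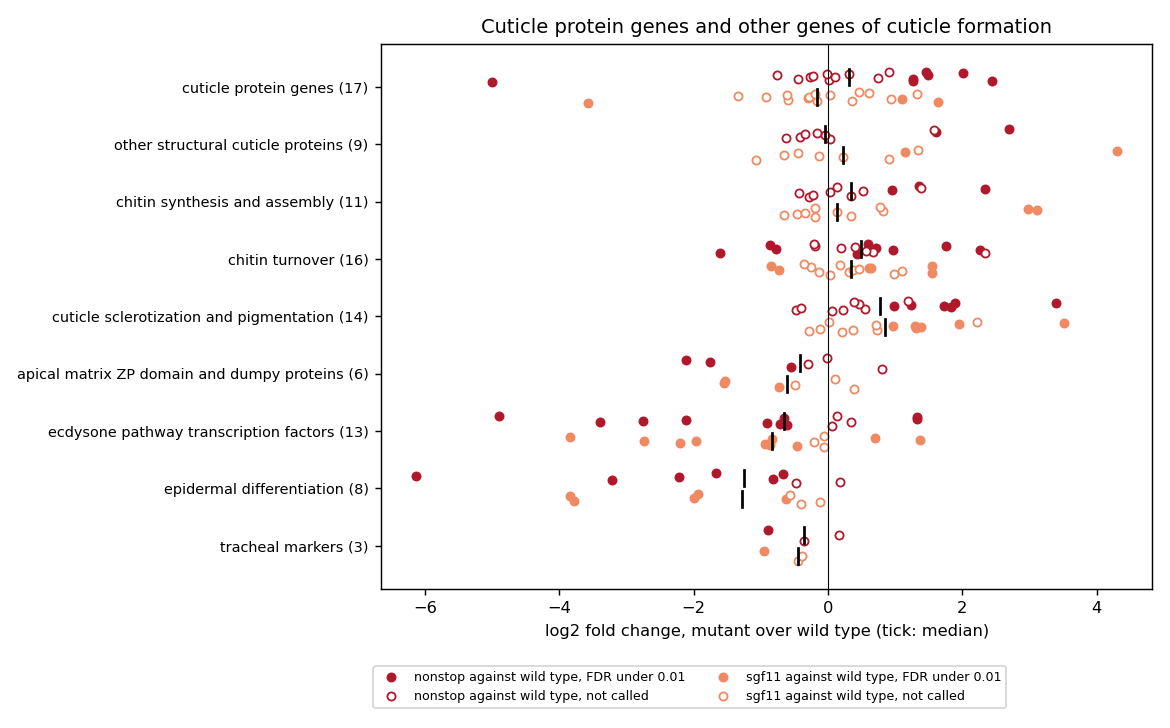
Log2 fold change of the tested genes of 9 lists in *nonstop* (dark red, upper) and *sgf11* (orange, lower) against wild type, with filled points for FDR under 0.01, a tick at each median and the number of genes tested beside each name. Sclerotization genes lie mostly to the right and ecdysone pathway and epidermal genes mostly to the left, while the cuticle protein genes have medians of 0.31 and −0.17.

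Markers of cells that could contribute cuticle transcripts to the nuclei were also measured. Of 8 tested genes for epidermal differentiation, 5 were downregulated in both mutants and none was upregulated, and the list summed to 252 to 272 CPM in *nonstop* and 256 to 361 CPM in *sgf11*, against 650 to 944 CPM in wild type. *ImpE2* and *ImpE1*, ecdysone-induced genes of imaginal discs, gave log2 fold changes of −6.13 and −2.22 in *nonstop* and −3.84 and −2.0 in *sgf11*. Without *ImpE1* and *ImpE2* the list summed to 138 to 185 CPM in *nonstop* and 138 to 202 CPM in *sgf11*, against 208 to 269.9 CPM in wild type. The largest part of this sum was *sn*, which averaged 66.6 CPM in *nonstop*, 75.5 CPM in *sgf11* and 117 CPM in wild type. Its log2 fold changes were −0.81 and −0.63, so the lower sum rested largely on this gene. *grh* and *ovo*, transcription factors of the epidermis, were not called, with −0.47 and 0.18 in *nonstop* and −0.40 and −0.12 in *sgf11*. *f* and *mwh*, which act in bristles and hairs, gave −3.21 and −1.67 in *nonstop* and −3.77 and −1.93 in *sgf11*. All mutant libraries lay below the wild-type range in both sums.

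Of 15 tested genes for eye and antennal disc epithelium, 3 were downregulated in both mutants and none was upregulated, and the list summed to 330 to 445 CPM in *nonstop*, 316 to 410 CPM in *sgf11* and 380 to 493 CPM in wild type, with overlap. The tracheal list summed to 67.5 to 101 CPM in *nonstop*, 59.8 to 70.2 CPM in *sgf11* and 98.3 to 115 CPM in wild type, its gene *Osi18* had no count in any library, and 1 of 3 tested genes, *vvl*, was downregulated in both mutants (−0.90 and −0.96). The fat body list summed to 16682 to 26420 CPM in *nonstop* and 12069 to 16151 CPM in *sgf11*, against 2791 to 3146 CPM in wild type, which was nearly all from the lipoprotein gene *apolpp*. Without *apolpp* this list summed to 33.2 to 52.1 CPM in *nonstop*, 74.0 to 148 CPM in *sgf11* and 65.2 to 143 CPM in wild type. Of its 7 tested genes, 1 was upregulated and 2 were downregulated in *nonstop*, and 4 were upregulated and 1 downregulated in *sgf11*. *Fbp1*, a receptor of larval serum proteins, fell in both mutants (−4.27 and −2.36), while *Lsp1alpha*, *Lsp1beta* and *Lsp2*, which encode such serum proteins, were lower in *nonstop* than in *sgf11* by log2 differences of −1.66, −1.42 and −1.51.

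Hemocyte and muscle lists had 0 genes called in either mutant at FDR under 0.01 in edgeR, and their sums overlapped between genotypes. At an unadjusted p under 0.05, 3 of 8 hemocyte genes and 0 of 9 muscle genes passed in *nonstop* and 2 of each in *sgf11*, while DESeq2 called 1 hemocyte gene in *nonstop*. The share of all genes at that unadjusted p was not determined. Of 9 tested neuronal genes, 7 were upregulated in both mutants, and the list summed to 889 to 1044 CPM in *nonstop* and 827 to 996 CPM in *sgf11*, against 526 to 737 CPM in wild type. The pan-glial list summed to 1215 to 2107 CPM in *nonstop*, 1493 to 2424 CPM in *sgf11* and 1339 to 1599 CPM in wild type. Of its 6 tested genes, 2 were upregulated and 1 downregulated in *nonstop*, and 2 were upregulated and 0 downregulated in *sgf11*. Only *Eaat1* was upregulated in both mutants, and the gene downregulated in *nonstop* was *loco* (−0.40, FDR = 0.0033). Of 9 tested genes for barrier glia, 3 were downregulated and 2 upregulated in *nonstop*, and 2 were downregulated and 0 upregulated in *sgf11*. *Jupiter* and *apt* were downregulated in both mutants, while *Tret1-1* and *Oatp58Dc* were upregulated in *nonstop* (0.73 and 0.65). The barrier glia list summed to 3343 to 4780 CPM in *nonstop*, 3324 to 5062 CPM in *sgf11* and 3678 to 4475 CPM in wild type. The part of these cell types in the levels of the cuticle protein genes was not tested.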

How the data were processed

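Nuclear RNA from affinity-enriched glia was amplified with the Ovation V2 system and sequenced as paired-end libraries in 1 pool of 12. The authors trimmed reads with Trimmomatic 0.32, aligned them to the BDGP5 genome with TopHat2 2.0.13 and Bowtie2 2.2.4, and deposited raw counts per gene from HTSeq 0.6.1, without strand, in union mode. Of all entries, 96.1 to 96.7% named no gene and were left out, nearly all of them in the class of alignments that are not unique. The authors' tables of edgeR fold changes and p-values were not used.

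The counts were tested with edgeR 4.0.16 (R 4.3.3) by the quasi-likelihood test in 1 fit of all 12 libraries, with TMM factors, genes over 1 CPM in at least 4 libraries (9966 genes), and Benjamini-Hochberg adjustment, called at FDR under 0.01. The common biological coefficient of variation was 0.154. Groups came from the genotype labels, and p-values measure the spread between these 4 libraries per genotype. Fit and script were tested on simulated data.

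Gene IDs were matched to symbols for 15002 of 15682 genes. Exon lengths, gene order, introns and overlaps came from BDGP6, another build, so no coordinates are given. Of the listed symbols, 174 were matched and 12 were not. The genes and lists were chosen with earlier results of these data known. Values per library are given for the 8 genes with the highest mean CPM, up to 12 with the largest change among those called, all called upward or between mutants, and the highest of each class; listed genes are up to 4 per list, by change among those called in both mutants and then by level. Others are said to be named for their values, or belong to counts of 5 or fewer, and the genes under the filter that are named were chosen after their values were seen. Counting intervals are exact binomial at 95%, and intervals and the floor of 3 counts cover counting error only. Alternatives were DESeq2 1.42.0, other scalings and filters, FDR 0.05, 2 genotypes per fit, a replicate block, and leaving out each library.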

Additional observations from a re-analysis of the deposited data

Results flagged for a closer look

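In 3 of 37 sets of 4 libraries, 1 library stood far from the other 3 by Dixon's test, which chance alone does in about 1 in 20 sets. *Cpr51A* was at 9.41 CPM in *sgf11* replicate 1, beside 5.69 to 6.22 CPM in the other *sgf11* libraries. *Cpr11B* was at 4.04 CPM in *nonstop* replicate 1, beside 2.2 to 2.47 CPM in the other *nonstop* libraries. *TwdlZ* was at 8.46 CPM in wild-type replicate 2, beside 5.65 to 5.90 CPM in the other wild-type libraries. *Cpr51A* was the only cuticle protein gene whose change differed between the mutants by the edgeR test of that difference, with *nonstop* above *sgf11* by 0.91 on the log2 scale.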

How the results depend on the processing

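The downregulation of *Cpr49Ac* in both mutants, the upregulation of *Cpr64Aa* in both and of *Cpr51A* in *nonstop* were called in all 12 fits that left out a library and in all 8 other alternatives that tested them. No direction of a called gene was reversed. Under a stricter filter, with CPM over library totals that include the entries that name no gene, which leaves 3633 genes, no cuticle protein gene was tested, and every count of calls was 0. Scaling by library size alone, which moved the median of all genes by −0.13 in *nonstop*, left 1 cuticle protein gene up in *sgf11*, 1 up in both mutants and 0 between the mutants. *nonstop* against *sgf11* gave 2 genes by DESeq2 and 2 at FDR 0.05 (*Cpr51A* and *Cpr78Cb*). Over fits without 1 library, the number called was 2 to 6 up in *nonstop*, with 2 without *nonstop* replicate 4 or wild-type replicate 3 and 3 without *nonstop* replicate 2 or wild-type replicates 1 or 2, 1 to 2 up in *sgf11*, 1 to 2 up in both, 0 to 2 between the mutants, and 1 down in each. The 1 up in *sgf11* and in both came without *nonstop* replicates 1, 3 or 4, any *sgf11* replicate or wild-type replicates 2 or 3, the 0 between the mutants without *nonstop* replicates 1 or 4 or *sgf11* replicates 2, 3 or 4, and the 2 without wild-type replicate 2. Replicate numbers did not pair the libraries: 12 same-numbered pairs correlated at −0.08 to 0.12. With the numbers as a replicate block, 0 genes differed between the mutants and 4 were up in *nonstop*. The cause of these moves was not tested. Depth limits what can be shown for the 106 genes that were not tested.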
